A study of Mus musculus with 12 samples.

Results

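The spots described here carry solute carriers and ATP-binding cassette (ABC) transporters, measured in mouse liver after bulaquine on 2-colour spotted arrays. They were chosen by name: a spot belonged if its annotation gave 1 gene symbol that begins with Slc and a number, with Slco, or with Abc, a letter from a to g and a number. Of 23040 spots on the array, 273 did so, for 198 genes. A background-corrected intensity above 0 in both dyes on all 12 arrays was also required, which left 152 spots for 116 genes among 11749 measured spots of all kinds. The share measured was 55.7% for the transporters and 51.0% for all spots. Of the 121 transporter spots that were left out, 84 were above 0 in both dyes on 9 to 11 arrays and 37 on 8 or fewer, and 82 genes had no measured spot.

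Bulaquine is an antimalarial of the aminoquinoline class, related to primaquine. Mice given the drug were compared with vehicle-treated mice at 6 h, 12 h and 24 h, with 4 arrays at each of the 3 time points. Each array held liver RNA of a drug-treated sample in one dye and of a vehicle-treated sample in the other. The drug sample was in Cy5 on the arrays F1 and F2 and in Cy3 on R1 and R2. Strain, sex, age, dose, route of dosing and the time at which vehicle mice were killed are not given in the sources used here, and neither is whether several arrays share the RNA of 1 animal. What the p-values weigh is thus the variation among arrays, some of which may be technical. In whole liver, fewer cells of a type and less RNA per cell cannot be told apart.

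Solute carriers are membrane proteins that move sugars, amino acids, metals, vitamins, nucleotide sugars and organic ions across the plasma membrane or the membranes of organelles, by facilitated diffusion or driven by ion gradients. Most ABC proteins use ATP to export their substrates. In liver, carriers on the blood side of the hepatocyte take up amino acids, fatty acids, glucose, organic ions and drugs, and ABC pumps send conjugated drugs, bile salts and lipids into bile or back to blood. The ABC proteins of subfamilies E and F have no membrane span and act on ribosomes and translation. They fell under the naming rule and stay in the counts.

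Of all transporter spots, that of Slc37a4 had the smallest p at any time, so sequence before its starts is shown here. Slc37a4 carries glucose 6-phosphate into the endoplasmic reticulum, where the glucose 6-phosphatase makes free glucose for release from the liver. RefSeq lists 3 starts for the gene on chromosome 9 of GRCm38.p6, all on the plus strand, and each of the windows of 100 bases before a start held 1 of the motifs searched, TATAAA and GGGCGG, on either strand. The 30 bases around each match are printed 5′ to 3′, with the matched letters in capitals, CCGCCC being GGGCGG read on the other strand.
Slc37a4 start at 44396946, chr9:44396903-44396932: gtggacagtagtCCGCCCaactctgtgcat
Slc37a4 start at 44397099, chr9:44397014-44397043: gggcgtcagtgaGGGCGGgactagagggca
Slc37a4 start at 44398354, chr9:44398310-44398339: ccagaaggcggcTATAAAgagcctgggtgg
The match began 31, 73 and 32 bases before the respective start, given as -31, -73 and -32 counted from it. TATAAA stood in 5.56% of 32851 windows of the same length in the RefSeq table and in 3.94% of 127 windows of 92 of the measured transporter genes. GGGCGG stood in 24.7% of all windows and in 51.2% of the transporter windows. The transporter windows are of genes measured in these livers, whereas the RefSeq table was not limited to measured genes. Windows of other measured genes were not counted, so the gap cannot be read as particular to transporters. A match describes these letters only, and the array does not tell which start a measured transcript came from.

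No transporter spot passed the test at any time point. The test was limma's moderated test on log2 ratios of bulaquine over vehicle, with a dye effect for each spot and Benjamini-Hochberg adjustment over all 11749 spots, and a spot was called at an adjusted p under 0.05. At 6 h 0 of 152 transporter spots were called, against 12 of all spots (0.102%). At 12 h the counts were 0 and 54 (0.46%), and at 24 h they were 0 and 56 (0.477%). With so few calls on the array, a share of 0 among 152 spots lies near the background, and nothing particular to transporters can be read from it. At an unadjusted p under 0.05, 9 transporter spots (5.92%) were counted at 6 h against 6.37% of all spots. The same counts were 11 (7.24%) against 8.6% at 12 h and 20 (13.2%) against 13.1% at 24 h.

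The typical transporter spot lay close to a ratio of 1 at every time. The median log2 ratio of the 152 spots was 0.03 at 6 h, -0.04 at 12 h and 0.05 at 24 h, against 0.00, -0.01 and 0.01 over all spots. Log2 ratios above 0 were found for 82 of the 152 spots at 6 h (53.9%, against 49.9% of all spots), 66 at 12 h (43.4% against 47.8%) and 89 at 24 h (58.6% against 50.9%). Between the lower and upper quartile the log2 ratios ran from -0.12 to 0.18 at 6 h, from -0.20 to 0.14 at 12 h and from -0.14 to 0.24 at 24 h. The 95% confidence interval lay wholly within a 2-fold change either way for 104 spots at 6 h (68.4%, against 68.4% of all spots), 103 at 12 h (67.8% against 67.2%) and 104 at 24 h (68.4% against 67.1%). For the remaining spots the arrays did not bound the change that closely.

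**Figure D1:**
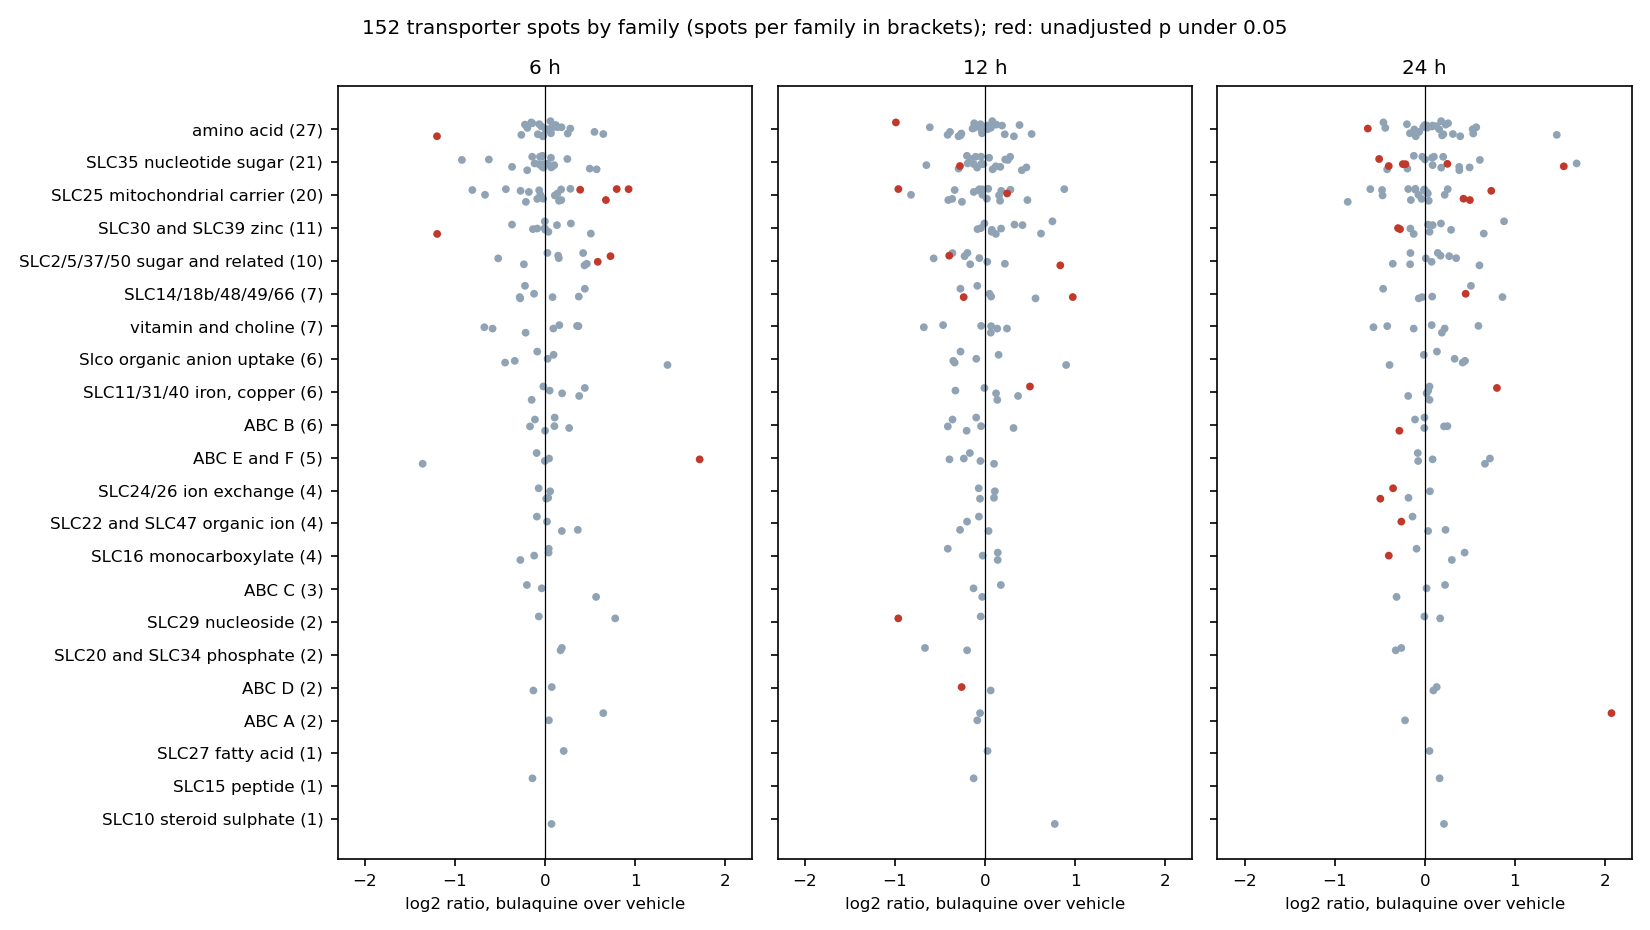
Log2 ratio of bulaquine over vehicle for each of the 152 transporter spots, in rows by family, at 6 h, 12 h and 24 h. Red points have an unadjusted p under 0.05 (9, 11 and 20 spots), none of them is called after adjustment, and in families of 10 or more spots the points lie on both sides of 0.

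The size of change that could be called depended on the brightness of the spot. The standard error of a log2 ratio had a median of 0.21 over the 152 spots and ran from 0.08 to 0.97. A dye effect, a difference between Cy5 and Cy3 that does not follow the drug, was called for 48 transporter spots (31.6%) against 28.9% of all spots. At the median standard error a call needed a change of 2.75-fold at 6 h, 2.29-fold at 12 h and 2.28-fold at 24 h, and at the lowest standard error 1.48-fold, 1.38-fold and 1.38-fold. Among the 76 brighter transporter spots the median standard error was 0.13 and no log2 ratio was beyond 0.58 at 6 h, 0.50 at 12 h or 0.53 at 24 h in size. Among the 76 dimmer ones the median standard error was 0.35, and 5 spots at 6 h, 0 at 12 h and 4 at 24 h had a log2 ratio of more than 1 in size. That was 3.29%, 0% and 2.63% of the transporter spots, against 2.17%, 4.13% and 3.18% of all spots.

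**Figure D2:**
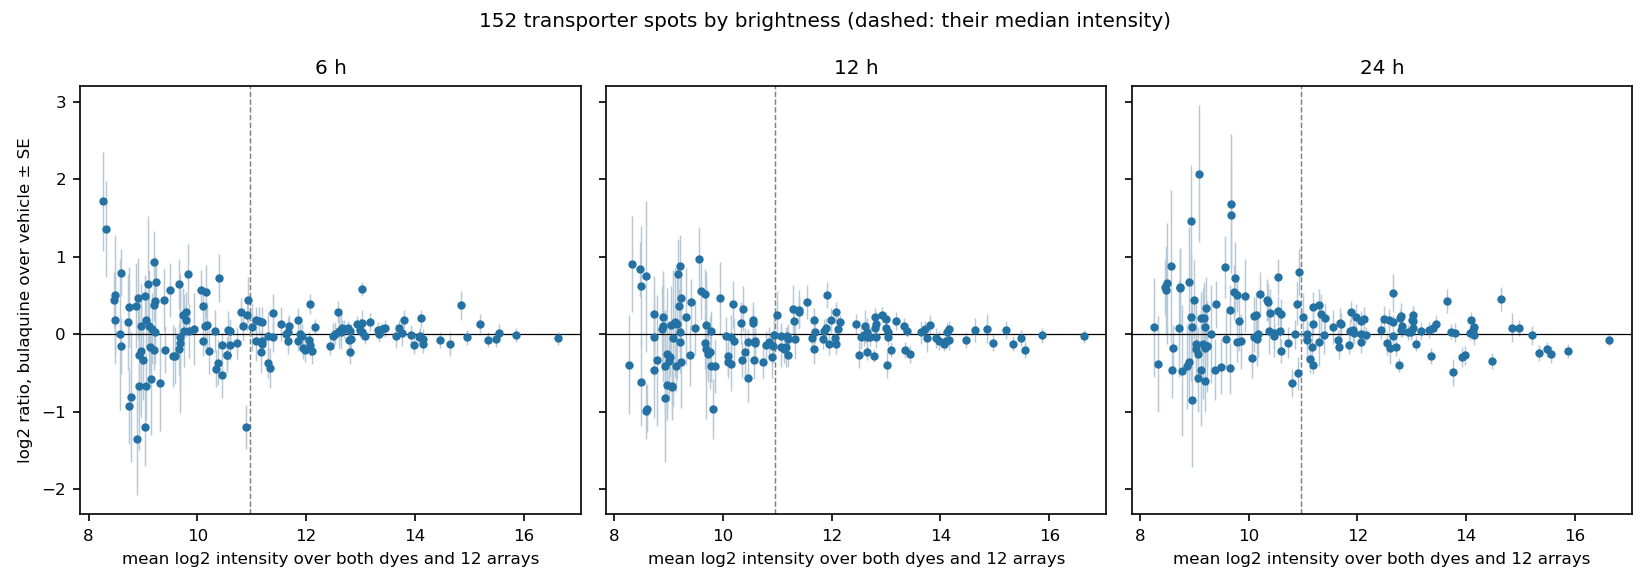
Log2 ratio of each transporter spot with its standard error (vertical bars) against its mean log2 intensity over both dyes and 12 arrays, at 6 h, 12 h and 24 h. The dashed line is the median intensity, and every log2 ratio of more than 1 in size, 5 at 6 h and 4 at 24 h, lies to its left.

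Among the carriers of sugars and related compounds, Slc37a4 had the smallest p of all transporter spots. At 6 h its log2 ratio was 0.56 on F1, 0.57 on F2, 0.66 on R1 and 0.55 on R2. The 4 arrays lay within a narrow band above 0, in both dye orders. The mean of these 4 arrays was 0.58 ± 0.09, with the SE taken from the fit of all 12 arrays. That was a 1.50-fold higher level in the drug samples, with a 95% interval of 0.38 to 0.79 on the log2 scale. The adjusted p of limma's moderated test was 0.0654. Slc37a4 missed the threshold, though its unadjusted p of 8.46e-05 ranked 15 among the 11749 spots. It was called under 3 of 24 other settings tried, 12 of which left out 1 array each. The 3 were without background correction (adjusted p = 0.00784), with scaling between arrays (0.0450) and without the dimmest 30% of spots (0.0192). With normexp background correction its log2 ratio was 0.41 (adjusted p = 0.112). The adjusted p was 0.442 with no dye effect in the model and 0.598 with 6 h fitted alone. With dye-swapped arrays of the same number averaged, in case they share RNA, the adjusted p was 0.604. At 12 h the arrays read 0.12, 0.02, 0.00 and -0.04, and at 24 h they read 0.29, 0.08, 0.11 and -0.18. These values fell on both sides of 0 and below all 4 arrays of 6 h. The difference of 12 h from 6 h was -0.56 (limma's adjusted p = 0.220) and that of 24 h from 6 h was -0.51 (adjusted p = 0.241), so the difference between time points did not pass either.

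Slc2a2, the high-capacity glucose carrier of the hepatocyte's plasma membrane, read -0.61 on F1, -1.16 on F2, 0.07 on R1 and 0.11 on R2 at 12 h. The values below 0 were on the arrays with the drug in Cy5, and the others were just above 0. The fitted log2 ratio was -0.40 ± 0.16 (SE), with an adjusted p of 0.566. At 6 h it was 0.15 and at 24 h 0.18, each with a standard error of 0.16. Slc5a6, which takes up biotin and pantothenate, read 0.63, 0.15, 0.59 and 1.53 at 6 h, above 0 on 4 of 4 arrays, with a mean of 0.73 ± 0.31 (SE) and an adjusted p of 0.756. Without R2 its mean was 0.45. The other spots of the group included Slc2a1, the glucose carrier of brain vessels, at -0.24, -0.16 and -0.16 at the 3 times. Slc2a10 read 0.44, 0.84 and 0.61 on a dim spot with a standard error of 0.36. Of the 10 spots in this group 8 were above 0 at 6 h, 3 at 12 h and 7 at 24 h, and 0 were called. Of other genes of glucose output, chosen after these values were seen, Pck1 was measured at 0.04, 0.41 and -0.07 and Pcx at -0.07, 0.15 and 0.04, and neither was called at any time.

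Among amino acid carriers, the one with the largest log2 ratio at 6 h was Slc7a2, which brings arginine, lysine and ornithine into the liver cell. Its arrays at 6 h read -1.49 on F1, -2.99 on F2, 0.04 on R1 and -0.36 on R2. The drug-in-Cy5 arrays were far below the drug-in-Cy3 arrays, and the spot had a dye effect of -0.79 (adjusted p = 0.00513 in limma's test of the dye effect). With that effect in the model the log2 ratio was -1.20 ± 0.28 (SE), with a 95% interval of -1.82 to -0.58 and an adjusted p of 0.316. At 12 h the log2 ratio was -0.29 and at 24 h 0.39, each with the same standard error. The 24 h value exceeded that of 6 h by 1.59 (limma's adjusted p = 0.235).

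Slc38a2, a sodium-coupled carrier of small neutral amino acids, read -0.28, -0.46, -0.54 and -1.26 at 24 h, below 0 on 4 of 4 arrays. The mean was -0.63 ± 0.18 (SE) and the adjusted p was 0.203. At 6 h the same spot read 0.21, 0.22, 0.43 and 0.26, above 0 on 4 of 4 arrays, with a mean of 0.28 and an adjusted p of 0.848. Its liver-enriched relative Slc38a4 had 2 spots, which read -0.08 and 0.06 at 6 h, 0.22 and 0.08 at 12 h, and 0.21 and 0.18 at 24 h, with standard errors of 0.11 to 0.12. The heavy chain Slc3a2, which pairs with several SLC7 light chains, read -0.20, -0.12 and -0.44 with a standard error of 0.33, and the light chain Slc7a5 read 0.01, -0.04 and -0.12 with one of 0.15. Of the 27 amino acid spots for 21 genes, 15, 12 and 18 lay above 0 at the 3 times, the medians were 0.03, -0.04 and 0.09, and 0 were called.

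Mitochondrial and related carriers of the SLC25 family made up 20 spots for 16 genes. Above 0 were 10, 9 and 8 of them, with medians of 0.04, -0.03 and -0.02, and 0 were called. Slc25a5, which exchanges ADP and ATP across the inner membrane, read 0.51, 0.26, 0.50 and 0.45 at 24 h. These 4 arrays were all above 0, and the mean of 0.43 ± 0.15 (SE) had an adjusted p of 0.283 and was 0.29 without F1. At 12 h the same spot read -0.53 and -0.63 with the drug in Cy5 and 0.60 and 0.65 with it in Cy3, so that the sign followed the dye and the fitted ratio was 0.02. Slc25a17, a peroxisomal carrier of cofactors, read 0.37, 0.55, 0.18 and 1.85 at 24 h, with R2 far above the others. Its mean was 0.74 ± 0.23 (SE), with an adjusted p of 0.236, and without R2 the 24 h value was 0.34.

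Slc25a38, which brings glycine into mitochondria for haem synthesis, read 0.01, 0.28, 1.09 and 0.63 at 24 h, with a mean of 0.50 ± 0.21 (SE), an adjusted p of 0.361 and a value of 0.33 without F2. Slc25a10, the dicarboxylate carrier, read 0.34, 0.37, 0.20 and 0.07 at 12 h, with a mean of 0.25 ± 0.10 (SE) and an adjusted p of 0.569. Both were above 0 on 4 of 4 arrays. At 6 h Slc25a43 read 0.17, 1.63, 0.54 and 0.84, with a mean of 0.79 ± 0.30 (SE), an adjusted p of 0.693 and a value of 0.52 without F2. At 12 h that spot was at -0.96, the lowest SLC25 value of that time, with an adjusted p of 0.427. A second Slc25a43 spot, above 0 on 11 arrays only, read 1.19 at 6 h and 0.02 at 12 h when such spots were admitted. Slc25a40, a carrier linked to glutathione import, had 2 spots that differed: the one counted at 6 h read 0.89, 0.94, 0.02 and 1.86, with a mean of 0.93 ± 0.40 (SE) and an adjusted p of 0.773, and the other had a mean of -0.21 ± 0.85 (SE). Without R2 the former was 0.48. Slc25a15, which carries ornithine for the urea cycle, was dim, and its arrays at 12 h ran from -5.65 on F1 to 2.47 on R1, with a fitted ratio of -0.82 ± 0.83 (SE).

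Among metal carriers, Slc40a1 exports iron from hepatocytes and macrophages. It read 0.39, 1.19, 0.49 and -0.06 at 12 h, above 0 on 3 of 4 arrays, with a mean of 0.50 ± 0.17 (SE), a 95% interval of 0.12 to 0.88 and an adjusted p of 0.485. At 6 h and 24 h it was at -0.02 and 0.05. Zinc carriers of SLC30 and SLC39 gave 11 spots for 7 genes, of which 5, 8 and 7 were above 0. Slc39a14, which brings zinc and iron into the hepatocyte, had 2 spots, with log2 ratios of 0.29 and -0.37 at 6 h, -0.01 and 0.33 at 12 h, and 0.18 and 0.04 at 24 h. Slc39a4, known as the zinc importer of the intestine, read -1.10, -0.31, -1.45 and -1.93 at 6 h. It was below 0 on 4 of 4 arrays with a mean of -1.20 ± 0.51 (SE) and an adjusted p of 0.755, and at 12 h and 24 h it read 0.12 and -0.12. Without R2 the 6 h value was -0.75. Slc30a7, which fills the Golgi with zinc, read -0.33, -0.21, -0.29 and -0.36 at 24 h on its bright spot, with a mean of -0.30 ± 0.13 (SE), an adjusted p of 0.365 and a value of -0.19 without F1. Its dim spot stood at 0.65 ± 0.78 (SE).

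The SLC35 family, carriers of nucleotide sugars into the Golgi and endoplasmic reticulum and several members of unknown substrate, gave 21 spots for 14 genes. Slc35f2, whose human counterpart is known for taking up a cytotoxic drug, had the smallest p among transporter spots at 24 h. At 24 h it read -0.55, -0.40, -0.41 and -0.24, and at 12 h it read -0.31, -0.30, -0.15 and -0.34. All 8 of these values were below 0, whereas at 6 h it read -0.06, 0.14, 0.05 and 0.20. The means were -0.40 ± 0.09 (SE) at 24 h, with an adjusted p of 0.100, and -0.28 ± 0.09 (SE) at 12 h, with an adjusted p of 0.435. On the linear scale the 24 h level was 1.32-fold lower in the drug samples. Without the dimmest 30% of spots the same 24 h value was called, with an adjusted p of 0.0381 in limma's test. Slc35e2 read -0.36, -0.63, -0.02 and -1.01 at 24 h, with a mean of -0.51 ± 0.21 (SE) and an adjusted p of 0.353, and its second spot read 0.50 ± 0.47 (SE). Slc35b1, which brings ATP into the endoplasmic reticulum, stood at 1.54 ± 0.68 (SE) on its dim spot, through an R2 value of 5.12, and at 0.08 ± 0.08 (SE) on its bright spot.

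Of carriers of drugs, organic ions and lipids, 6 spots of genes on the liver list are given next, each less than 2 standard errors from 0 at every time. They are not the whole group. Of the 4 SLC22 and SLC47 spots, 1 was lower at 24 h at an unadjusted p under 0.05, as were 7.13% of all spots. The 6 Slco spots ran from -0.44 to 1.36 at 6 h, and the pump Abcc3 is given below. Slc22a5, the carnitine carrier, read 0.19, 0.04 and 0.04 at the 3 times with a standard error of 0.16. Slc47a1, which exports organic cations, read 0.36, -0.28 and 0.23 with one of 0.24, and Slco2b1, which takes up organic anions, read 0.03, -0.10 and 0.33 with one of 0.41. Slc27a2, which brings in and activates fatty acids, read 0.21, 0.03 and 0.05 with one of 0.11. Slc16a1, the lactate carrier, had 2 spots, at 0.04 and 0.04 at 6 h, -0.41 and 0.14 at 12 h, and -0.09 and 0.44 at 24 h.

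ABC proteins gave 18 spots. Abcc3, the pump that returns conjugates from the hepatocyte to blood, read -0.01, 0.38, 0.52 and 1.38 at 6 h, with a mean of 0.57 ± 0.26 (SE) and an adjusted p of 0.784. At 12 h and 24 h it stood at -0.03 and -0.31. A second Abcc3 spot, above 0 on 11 arrays only, read 0.08, -0.66 and -0.38 at the 3 times when such spots were admitted. The drug exporter Abcb1b had 2 spots, at 0.27 and 0.10 at 6 h, 0.32 and -0.04 at 12 h, and 0.00 and 0.25 at 24 h, with standard errors of 0.25 and 0.29. Abcb10, an exporter of the mitochondrial inner membrane linked to haem synthesis, read -0.48, -0.28, -0.26 and -0.11 at 24 h, with a mean of -0.28 ± 0.10 (SE) and an adjusted p of 0.280. Its other spot stood at 0.00. Abcd3, a peroxisomal carrier of fatty acids, read -0.33, -0.82, -0.05 and 0.18 at 12 h, with a mean of -0.26 and an adjusted p of 0.576. Abca9 had the largest log2 ratio of any transporter spot, 2.07 ± 0.88 (SE) at 24 h with an adjusted p of 0.359. It came from 6.88 on F1, while F2, R1 and R2 read 0.50, 0.56 and 0.34, and without F1 the value was 0.47.

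Among the remaining families, 1 of 2 spots of Slc49a4, a lysosomal membrane carrier, read 0.30, 0.19, 2.05 and 1.36 at 12 h, with a mean of 0.98 ± 0.40 (SE) and an adjusted p of 0.563, while the second spot stood at 0.07. Slc14a1, the urea carrier of red cells and kidney vessels, read -0.06, -0.03, -0.60 and -0.26 at 12 h on 1 spot, with a mean of -0.24 ± 0.10 (SE) and an adjusted p of 0.576, and 0.05 on the other. At 24 h Slc26a10, of the anion exchanger family, read -0.08, -1.19, -0.34 and -0.36, with a mean of -0.49 ± 0.17 (SE) and an adjusted p of 0.277. Without F2 that value was -0.21. A second Slc26a10 spot, above 0 on 10 arrays only, read 0.47 at 24 h when such spots were admitted. In all, 12 transporter spots were above 0 on 4 of 4 arrays at 6 h (7.89%, against 5.18% of all spots) and 10 were below 0 on 4 of 4 (6.58% against 5.81%). At 12 h these counts were 6 (3.95% against 4.74%) and 7 (4.61% against 6.32%), and at 24 h 6 (3.95% against 6.52%) and 13 (8.55% against 8.78%).

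**Figure D3:**
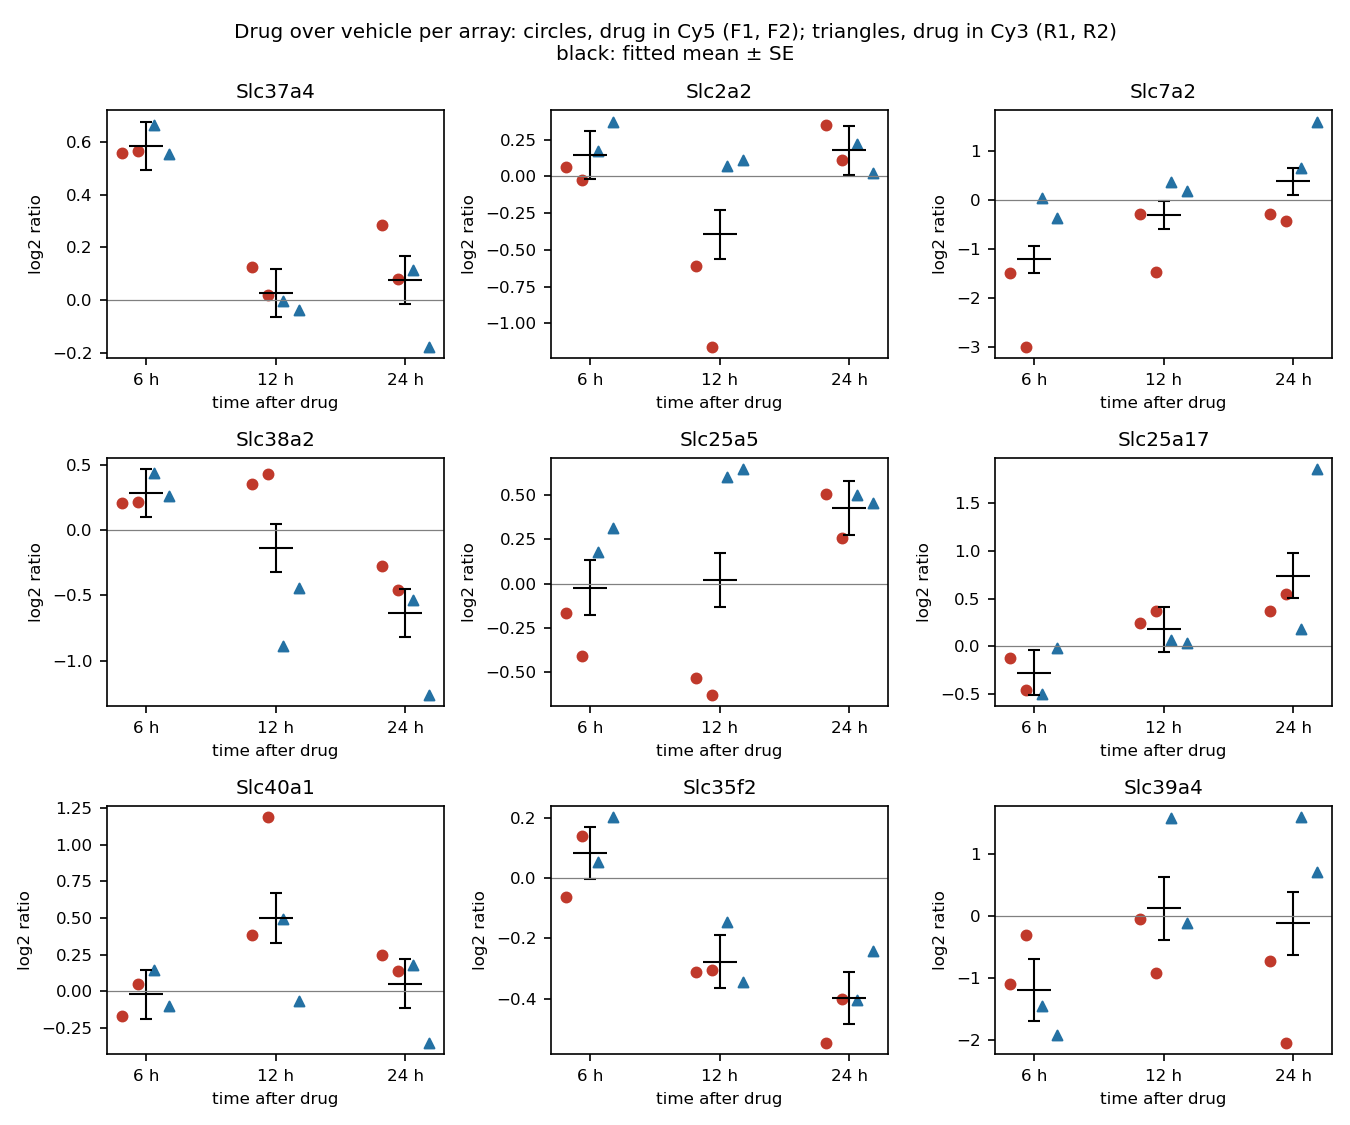
Log2 ratio of bulaquine over vehicle on each array for 9 transporter spots at 6 h, 12 h and 24 h, with its own vertical scale in each panel. Circles have the drug in Cy5 and triangles in Cy3, the black bar is the fitted mean with its standard error, Slc37a4 lies between 0.55 and 0.66 on the 4 arrays of 6 h, and for Slc7a2 the circles lie below the triangles at each time.

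The difference between time points was tested directly with a moderated F test of limma, adjusted over all spots. It called 0 of 152 transporter spots, against 62 of all spots (0.528%), and at an unadjusted p under 0.05 it counted 9 (5.92%) against 9.24%. Slc37a4 had the smallest p of the transporter spots (adjusted p = 0.184), followed by Slc25a43 (0.286), Slc35f2 (0.301), Slc7a2 (0.306) and Slc38a2 (0.420). Over the 12 arrays, the transporter spots whose drug over vehicle ratios were most like those of Slc37a4 were Slc20a2, a phosphate carrier, at Pearson r of 0.78, Slc25a43 at 0.74 and Slc38a2 at 0.70. The arrays of 1 time point share their animals' condition, and these correlations are a description chosen as the highest among 151 other spots.

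Spots that carry the same gene gave a check of the values within the array. Of the 116 genes, 32 had more than 1 measured spot, which made 40 pairs. The 2 spots of a pair had log2 ratios of the same sign in 13 pairs at 6 h, 17 at 12 h and 19 at 24 h. The median difference between them, without sign, was 0.18, 0.34 and 0.27 on the log2 scale. The median standard error of a single spot was 0.21, and that of a difference between 2 spots is larger. Genes with more than 2 measured spots gave several of the pairs. Across the 40 pairs r was -0.16, -0.18 and -0.04, a value across genes, which are not independent replicates. For Slc29a1, the nucleoside carrier, the spots read 0.78 and -0.07 at 6 h and -0.96 and -0.05 at 12 h, and for Slc6a6, the taurine carrier, they read -0.99 and 0.07 at 12 h. In both cases the value near 0 came from the brighter spot.

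**Figure D4:**
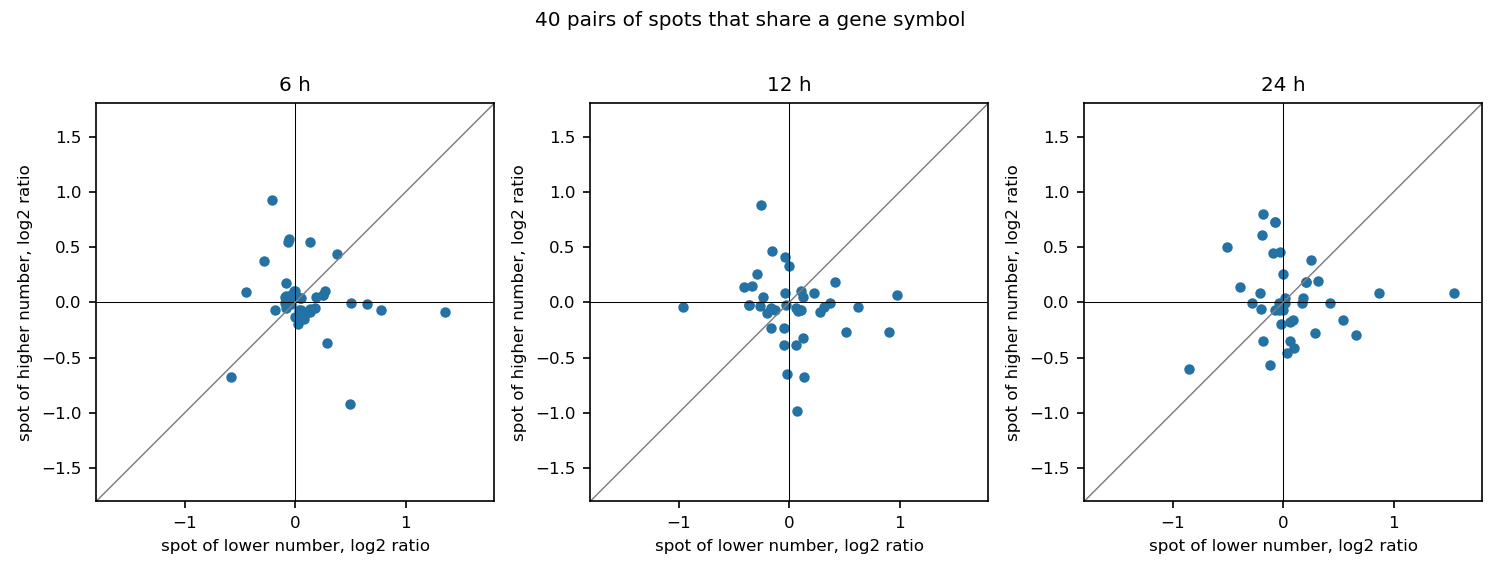
Log2 ratios of the 2 spots of each of the 40 pairs that share a gene symbol, at 6 h, 12 h and 24 h, with the line of equality in grey. The pairs scatter over all 4 quadrants, and 13, 17 and 19 of them have the same sign in both spots.

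A list of 35 carriers and pumps known for hepatic uptake and export had 17 genes with a spot of 1 symbol and 15 that were measured, on 19 spots. Of these 13 were above 0 at 6 h, 9 at 12 h and 15 at 24 h, with medians of 0.06, -0.01 and 0.18, and 0 were called. An unadjusted p under 0.05 was reached by Slc37a4 and Slc7a2 at 6 h, by Slc40a1 and Slc2a2 at 12 h, and by 0 spots at 24 h. Slc22a7 and Abcc4 had a spot that was above 0 in both dyes on 11 and 9 arrays only, and the bile salt carriers Slc10a1 and Abcb11 were not analysed here. Of 38 genes for ion pumps, channels and transporter partners, 20 were measured on 27 spots, and 0 were called. At 24 h, 2 of these spots were higher and 2 lower at an unadjusted p under 0.05. The higher ones were Atp6v1e1 at 0.40 ± 0.13 (SE, adjusted p = 0.233) and 1 spot of Atp1b1 at 0.42 ± 0.13 (SE, adjusted p = 0.231). The other Atp1b1 spots read -0.23 and 0.63. Atp2a2, the calcium pump of the endoplasmic reticulum, stood at -0.67 ± 0.16 (SE) at 24 h with an adjusted p of 0.121. Pdzk1, a scaffold for carriers in the membrane, stood at -0.64 at 12 h and -0.87 ± 0.26 (SE) at 24 h with adjusted p of 0.563 and 0.217. The water and glycerol channel Aqp9 stood at 0.32 ± 0.11 (SE) at 12 h with an adjusted p of 0.484. Of 15 regulators of bile acid and transporter genes only Nr1h3 and Rxra were measured, between -0.26 and 0.15 at all times.

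Of 7 hepatocyte markers 3 were measured, Alb, Ttr and Apoa1, and the lowest of them, Ttr, stood at percentile 97.8 of intensity among the measured spots. The brightness of Ttr and Apoa1 is also given below for the naming of the spots, so it is no independent check of the liver label. Of 11 markers of Kupffer cells and macrophages 3 were measured, and Csf1r, Mpeg1 and Lyz2 were all below 0 at 6 h, at -0.67, -0.84 and -0.50, with 0 called. Their summed intensity at 6 h was 7486 to 11160 in the drug samples and 9016 to 19524 in the vehicle samples, and at 24 h 3 of 3 were above 0. Of 8 stellate cell spots, 2 were above 0 at 6 h, 5 at 12 h and 5 at 24 h, with medians of -0.27, 0.13 and 0.06. The 3 endothelial spots had medians of 0.02, -0.05 and -0.05, the 2 neutrophil spots 0.24, -0.24 and -0.23, and the only lymphocyte spot, for Cd3e, read -0.05, -0.12 and -0.43. For bile duct cells 0 of 5 markers were measured.

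Of 19 spots annotated with alpha or beta globin, 3 were above 0 at 6 h, 19 at 12 h and 19 at 24 h, with medians of -0.26, 1.63 and 0.19. The only measured gene of the erythrocyte list, Car2, read -0.81, 0.22 and 1.05. Among carriers that red cells or their precursors use, picked after their values were seen, Slc25a38 read 0.18, -0.41 and 0.50. Slc14a1 read 0.08, -0.24 and -0.03 on 1 spot and -0.12, 0.05 and 0.45 on the other. Abcb10 read 0.00, -0.20 and -0.28 on 1 spot and 0.11, -0.10 and 0.00 on the other. These genes are examples and no complete set. The iron carrier Slc40a1 read -0.02, 0.50 and 0.05. Slc11a2 read 0.38, 0.37 and -0.18 on 1 spot and 0.44, -0.01 and 0.80 on the other. A spot of Slc25a37, above 0 on 11 arrays only, read 0.86, -0.85 and -0.02 when such spots were admitted. The part of red cells in the transporter values was not tested.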

How the data were processed

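Liver RNA was measured on 12 arrays. Per the series' design text, the authors extracted spot intensities with ArrayVision and took LOWESS-normalized log ratios. The deposited intensity columns held foreground, background and corrected intensity per dye, with a signal-to-noise score per dye. The authors' deposited log2 table was used as an alternative, and correlated at 0.998 to 1.000 with the ratios used here. On single arrays the median signal-to-noise score ran from 0.76 to 1.42 (Cy3) and from 0.47 to 1.34 (Cy5), and 6.23% to 18.7% of the transporter spots were at 0. The number of arrays limits the precision.

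Spots were paired with the probe annotation by moving the 48 blocks of 480 spots between row-wise and column-wise order of a 12 by 4 grid, which put Ttr at percentile 98.9 of intensity (62.5 by the deposited numbers) and Apoa1 at 99.5 (2.28). Corrected intensities of 0 were treated as missing. A global loess curve (span 0.3) normalized each array's log2(Cy5/Cy3). Spots above 0 on all arrays entered a linear model (limma 3.58.1, R 4.3.3) with 1 coefficient per time point, signed by dye, and a dye effect. Standard errors come from this fit of all arrays, so a spot has the same one at each time. The values given per array still hold the dye effect. The code was tested on simulated data.

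Named are called spots, and per time and direction up to 6 spots of 1 sign on 4 arrays with an unadjusted p under 0.05. Every measured gene of the liver list and all measured spots of such genes are named too. Some of these genes have further spots that were not above 0 on all arrays, and only some of those are given. Other genes are examples picked after their values were seen. Members and lists were chosen with earlier results of these data known. Promoter sequences are RefSeq's (GRCm38.p6).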

Additional observations from a re-analysis of the deposited data

Results flagged for a closer look

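Of 54 groups of 4 arrays examined, 2 held an array that stood apart from the other 3, and chance gives about 1 in 20. For Slc37a4 at 6 h it was R1, at 0.66 against 0.55 to 0.57 on the others, in a group whose whole range was narrow. For Abca9 at 24 h it was F1, at 6.88 against 0.34 to 0.56.

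Slc25a17, Slc38a2 and Slc25a40 had all arrays of one time on one side of 0 and all arrays of another time on the other side. Slc25a17 was below 0 at 6 h and above 0 at 12 h and 24 h, with differences from 6 h of 0.45 (limma's adjusted p = 0.844) and 1.01 (adjusted p = 0.384). Slc38a2 differed between 24 h and 6 h by -0.91 (adjusted p = 0.308) and 1 spot of Slc25a40 by -1.53 (adjusted p = 0.453). None of these 4 differences passed the test. Such opposite signs were found in 0.877% of the comparisons between times over the transporter spots and in 0.843% over all spots.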

How the results depend on the processing

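The count of 0 called transporter spots at 6 h became 1 without background correction, with scaling between arrays and without the dimmest 30% of spots, each time Slc37a4 (adjusted p of 0.00784, 0.0450 and 0.0192). That was 0.658%, 0.658% and 0.99% of the transporter spots, against 0.289%, 0.153% and 0.316% of all spots. At 24 h the count became 1 with normexp (Slc24a3, -0.40, adjusted p = 0.0479) and 1 without the dimmest 30% (Slc35f2, adjusted p = 0.0381), where fewer spots are tested. These were 0.658% and 0.99% of the transporter spots, against 1.29% and 1.8% of all spots. Naming spots by the deposited numbers gave 137 transporter spots, with 1 call at 6 h (0.73%, against 0.102% of all spots) and 2 at 24 h (1.46% against 0.477%). The F test then called 2 of them, against 0.528% of all spots. The called spots then carry the names Slc16a1, Slc48a1 and Slc2a2. The 12 h median was 0.026 with normexp, against -0.039, and Slc25a40 reversed to -0.023 at 6 h without background correction. Apart from the number of spots tested, the cause was not tested. Of 19 named values 18 kept their sign in every alternative that gave a value, but not their size. With normexp 13 of the 19 shrank by more than 1.5 times, and without background correction 11 did. With normexp Slc25a43 stood at 0.045 and Slc5a6 at 0.11 at 6 h, Slc39a4 at -0.093 at 6 h, and Abca9 at 0.18 at 24 h. Slc37a4 stayed between 0.54 and 0.61 when any 1 array was left out, with an adjusted p of 0.0527 to 0.390. Leaving out any array gave 0 calls of transporter spots at each time. Of all spots these fits called 2 to 9 at 6 h, 37 to 59 at 12 h and 15 to 44 at 24 h. The replicate block gave 0 calls too, against 2, 42 and 24 of all spots, with an adjusted p of 0.245 for Slc37a4. The deviations of arrays of the same label at different times correlated at r of -0.22 to -0.08. No value for unrelated arrays was worked out to set beside them. Arrays of the same number and opposite dye within a time correlated at r of -0.22 to -0.11, and at 0.07 to 0.16 with the dye effect removed. The dye effect was fitted on the same arrays, and its removal alone raises such an r, so these values cannot tell whether RNA was shared. Whether the arrays of such a pair share RNA is not given. With each such pair averaged to 1 value, 0 transporter spots were called, against 0, 9 and 0 of all spots at 6 h, 12 h and 24 h. The adjusted p was then 0.604 for Slc37a4 at 6 h and 0.347 for Slc35f2 at 24 h. Admitting spots above 0 on 3 of 4 arrays added 60 transporter spots and 0 calls among them, against 6, 44 and 38 calls among all 17158 spots. Signal over background limits what the 76 dimmer spots can show.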
